A study of Homo sapiens with 12 samples.

Results

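The 9 genes described here, ACAT2, HMGCS1, MVK, PMVK, MVD, IDI1, FDPS, GGPS1 and FDFT1, encode enzymes of the mevalonate pathway between acetyl-CoA and squalene. They were chosen by name: every gene probe of the array whose gene name was a member was taken, which gave 12 probes for the 9 genes, out of 33476 tested probes of 24259 genes. All groups were HuH-7 cells, a single line from a human hepatocellular carcinoma, whose labels give the genotype as p53 mutant Y220C, so every array, control arrays included, carried this mutant p53 and no wild-type p53 arm was measured here. The cells received DMSO, the solvent control, 28 µM SLMP53-2 or 42 µM SLMP53-2, a small molecule studied as a reactivator of mutant p53, and were harvested after 24 h. The doses are named in the labels as 2 and 3 times the IC50, and another field of the labels gives the higher dose as 48 µM. Each group had 4 biological replicates and each replicate 1 array, 12 arrays in all, on 5 slides that were each scanned at a time of its own.

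The mevalonate pathway condenses acetyl-CoA into mevalonate, turns mevalonate into the isoprene unit isopentenyl diphosphate, and joins these units into farnesyl diphosphate, from which the cell makes squalene and cholesterol on one side and the lipid anchors of prenylated proteins, ubiquinone and dolichol on the other. In liver cells the genes of the pathway are known as targets of SREBP-2, a transcription factor that is held in the endoplasmic reticulum when sterols are plentiful and released by cleavage when they are scarce. NF-Y and Sp1 are known partners of SREBP at such promoters. Since RNA of whole cultures was measured, a lower share of expressing cells and less RNA per cell cannot be told apart.

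Because most of the members moved together, as described below, the stretch before their start sites is shown. RefSeq windows of GRCh38.p14, 250 bases before to 50 after an annotated start, matched 7 of the 9 members with 12 windows, and ACAT2 and FDFT1 are named only. The letters CCAAT (NF-Y), GGGCGG (Sp1) and TCACNCCAC (a sterol regulatory element type) were searched on both strands. These motifs were chosen with the expression results known. CCAAT or its reverse complement lay in 7 of the 12 windows and in 34.6% of all 35116 windows in the table. GGGCGG lay in 11 of the 12 windows and in 45% of all windows. TCACNCCAC lay in 0 of the 12 and in 1.13% of all. The 220 bases before the outermost start are printed for the 4 genes with a window that rose at 42 µM and for the 2 members that stayed closest to DMSO, each 5′ to 3′ in the direction of the gene, with CCAAT and its reverse complement in capitals. The HMGCS1 stretch is chr5:43313413-43313632 (minus strand), that of MVD chr16:88663092-88663311 (minus strand), that of IDI1 chr10:1056705-1056924 (minus strand) and that of FDPS chr1:155308646-155308865 (plus strand). The PMVK stretch is chr1:154936720-154936939 (minus strand) and that of GGPS1 chr1:235326996-235327215 (plus strand).
HMGCS1: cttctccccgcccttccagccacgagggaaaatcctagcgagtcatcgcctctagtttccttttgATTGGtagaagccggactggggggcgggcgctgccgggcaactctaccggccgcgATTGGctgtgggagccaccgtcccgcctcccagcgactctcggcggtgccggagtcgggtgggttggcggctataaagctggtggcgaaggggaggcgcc
MVD: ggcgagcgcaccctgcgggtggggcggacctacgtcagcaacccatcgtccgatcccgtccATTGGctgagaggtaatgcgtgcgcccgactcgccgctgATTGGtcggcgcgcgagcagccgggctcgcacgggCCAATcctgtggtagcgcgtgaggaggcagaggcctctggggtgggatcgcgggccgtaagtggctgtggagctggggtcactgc
IDI1: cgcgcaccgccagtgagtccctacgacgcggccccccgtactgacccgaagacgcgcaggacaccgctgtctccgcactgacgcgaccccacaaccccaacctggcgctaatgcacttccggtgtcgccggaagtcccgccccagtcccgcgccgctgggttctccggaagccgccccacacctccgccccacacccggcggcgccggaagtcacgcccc
FDPS: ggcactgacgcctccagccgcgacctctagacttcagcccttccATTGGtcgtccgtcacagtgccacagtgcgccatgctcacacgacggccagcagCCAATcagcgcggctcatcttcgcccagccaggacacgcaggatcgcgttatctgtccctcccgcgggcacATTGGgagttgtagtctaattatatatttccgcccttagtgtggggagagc
PMVK: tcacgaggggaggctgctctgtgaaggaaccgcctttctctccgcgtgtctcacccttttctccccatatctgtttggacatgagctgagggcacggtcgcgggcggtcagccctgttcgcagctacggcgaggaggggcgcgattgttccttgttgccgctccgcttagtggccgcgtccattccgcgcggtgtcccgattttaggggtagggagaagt
GGPS1: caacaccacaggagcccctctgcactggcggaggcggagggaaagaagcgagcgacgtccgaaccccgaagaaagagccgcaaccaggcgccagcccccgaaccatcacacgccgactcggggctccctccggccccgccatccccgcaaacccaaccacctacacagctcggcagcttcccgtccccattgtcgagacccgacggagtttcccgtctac

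In these stretches HMGCS1 held 2 CCAAT matches, with first bases at −155 and −100 from the start, MVD held 3, at −159, −120 and −85, and FDPS held 3, at −176, −122 and −51. IDI1, which rose as well, held 0 in its outermost window, as did PMVK and GGPS1. Of the windows not printed, that of MVK held 5, the other two IDI1 windows held 2 and 3, the other HMGCS1 window held 0, and the other two GGPS1 windows held 1 and 0. A match is a description of letters and was not tested as a binding site, and a window without a match says only that these letters are not in it.

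All 12 member probes were well above background on all 12 arrays and none was saturated. With the measured values on the log2 scale after background correction and quantile normalization, 6 of the 9 members rose at 42 µM against DMSO, namely ACAT2, HMGCS1, MVD, IDI1, FDPS and FDFT1, by 0.68 to 1.37 on the log2 scale. A member counts as risen when limma's Benjamini-Hochberg adjusted p is below 0.05 and the log2 change is at least 0.6 on the probe of highest mean level, which stands for the gene. By the same rule 381 of the 24259 genes rose, a background of 1.57%. At 28 µM the changes of the same genes ran the same way, but 0 of the 9 members passed, as did 0% of all genes. For 28 µM replicate 4 the median deviation of the members from the DMSO mean was 0.02 on the log2 scale. No member fell at either dose. PMVK and GGPS1 lay within 0.15 of DMSO on the log2 scale at both doses.

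Of the arrays as a whole, 65% to 85% of gene spots were well above background. The labelled liver origin was looked at with 7 hepatocyte markers, all of which were detected in each group, among them ALB on all 12 arrays. Of 7 markers of white blood cells, fibroblasts and endothelium, PTPRC, the leukocyte marker, was above background on 0 of 4 DMSO arrays, 2 of 4 at 28 µM and 0 of 4 at 42 µM, while the others were detected on 3 or 4 arrays of each group. Mean log2 values on DMSO ran from 6.74 for HNF4A to 16.14 for ALB among the hepatocyte markers. Among the markers of other cell types they ran from 5.85 for PTPRC to 10.13 for COL1A2. The 2 lists thus overlapped in level, and detection alone does not tell them apart. No gene of either marker list passed the test at either dose.

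The pathway starts with ACAT2, the cytosolic thiolase that joins 2 acetyl-CoA into acetoacetyl-CoA (probe at chr6:160199814-160199873, hg19). Its log2 values on DMSO were 13.38, 13.45, 13.35 and 13.23 for replicates 1 to 4. At 28 µM they were 14.54, 14.35, 14.20 and 13.09, and at 42 µM 14.61, 14.46, 14.34 and 14.23. All arrays at 42 µM lay above all DMSO arrays, and at 28 µM replicates 1 to 3 did so while replicate 4 was the lowest of the 12. ACAT2 rose at 42 µM by 1.06 on the log2 scale (SE 0.24, 2.08-fold, limma adjusted p = 0.0356). At 28 µM the difference was 0.69 (SE 0.24, adjusted p = 0.318). A dimmer ACAT2 probe at chr6:160199899-160199958 scattered more, with a within-group SD of 0.50 to 1.03, and its difference of 1.0 at 42 µM did not pass (SE 0.43, adjusted p = 0.278).

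HMGCS1, the cytosolic synthase that makes 3-hydroxy-3-methylglutaryl-CoA, was also higher on all 42 µM arrays than on any DMSO array (probe at chr5:43290117-43290176). DMSO replicates 1 to 4 read 10.68, 11.35, 11.53 and 11.20. The 28 µM arrays read 12.63, 12.89, 12.20 and 11.41, and the 42 µM arrays 12.52, 12.78, 12.24 and 12.14. At 28 µM only replicate 4 fell into the DMSO range. HMGCS1 rose at 42 µM by 1.23 (SE 0.28, 2.35-fold, limma adjusted p = 0.0339), and the value was 1.06 and no longer passed without DMSO replicate 1, the lowest control array. Without DMSO replicate 2, 3 or 4 it did not pass either, with values of 1.23 to 1.35 (limma adjusted p = 0.0522 to 0.0839). The 28 µM difference was 1.09 (SE 0.28, adjusted p = 0.197). A second probe at chr5:43291081-43291140 gave 1.07 at 42 µM (SE 0.27, adjusted p = 0.0516), just over the limit, with no overlap between 42 µM and DMSO.

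MVK, mevalonate kinase, was higher on all 42 µM arrays than on any DMSO array but did not pass the test (probe at chr12:110034941-110035000). Its DMSO values were 13.70, 13.34, 13.19 and 13.15, those at 28 µM 14.24, 13.91, 14.18 and 12.94, and those at 42 µM 14.38, 14.14, 13.99 and 13.96. The lowest of all 12 arrays was again 28 µM replicate 4. The difference was 0.77 at 42 µM (limma adjusted p = 0.115) and 0.47 at 28 µM (adjusted p = 0.501), with an SE of 0.24 for each. A much dimmer MVK probe at chr12:110023847-110023906 gave another order of the arrays, with 28 µM replicate 4 near the rest of its group. It read 7.50, 7.40, 8.11 and 7.95 on DMSO and 8.35, 8.22, 8.49 and 8.24 at 28 µM, so that all 28 µM arrays lay above all DMSO arrays, while the 42 µM arrays read 7.72, 8.45, 8.34 and 8.64. Its difference was 0.58 at the lower dose (limma adjusted p = 0.308) and 0.55 at the higher dose (adjusted p = 0.187), each with an SE of 0.20.

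PMVK, phosphomevalonate kinase, which adds the next phosphate, stayed near its DMSO level (probe at chr1:154897398-154897457). It read 11.19, 10.82, 10.92 and 10.79 on DMSO, 10.98, 11.02, 11.34 and 10.95 at 28 µM, and 11.11, 11.19, 11.01 and 11.03 at 42 µM. The groups overlapped. The difference was 0.14 at 28 µM (95% confidence interval −0.13 to 0.41) and 0.15 at 42 µM (−0.12 to 0.42), so that an increase of the size seen for ACAT2 or MVD lay outside both intervals.

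MVD, the decarboxylase that releases isopentenyl diphosphate, changed most among the members in log2 terms at 42 µM (probe at chr16:88718985-88719738, an interval wider than those of the other probes). DMSO replicates read 9.73, 9.52, 10.12 and 9.94, the 28 µM arrays 10.53, 11.33, 11.23 and 10.23, and the 42 µM arrays 10.54, 11.49, 11.27 and 11.50. At either dose no treated array overlapped with DMSO. Replicates 1 and 4 were the lower ones at 28 µM and replicate 1 at 42 µM. MVD rose by 1.37 at 42 µM (SE 0.27, 2.59-fold, limma adjusted p = 0.0179), against a 28 µM difference of 1.0 (SE 0.27, adjusted p = 0.207).

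IDI1, the isomerase that turns isopentenyl into dimethylallyl diphosphate, differed from DMSO by about as much at 28 µM as at 42 µM (probe at chr10:1086619-1086678). The DMSO arrays read 10.70, 10.93, 10.93 and 10.93, the 28 µM arrays 11.77, 11.89, 11.53 and 11.10, and the 42 µM arrays 11.55, 11.51, 11.53 and 11.64. No treated array overlapped DMSO. IDI1 rose by 0.68 at 42 µM (SE 0.15, 1.60-fold, limma adjusted p = 0.0308), and its 28 µM difference of 0.70 (SE 0.15) had the smallest unadjusted p of the members at that dose, 0.000473, but an adjusted p of 0.175. The difference between its 2 doses was −0.02, with a 95% confidence interval of −0.34 to 0.31.

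FDPS makes farnesyl diphosphate, the last intermediate before the branch point (probe at chr1:155290269-155290328). It read 13.68, 13.70, 13.40 and 13.61 on DMSO, 14.47, 14.89, 14.10 and 13.59 at 28 µM, and 14.61, 14.52, 14.25 and 14.46 at 42 µM. All arrays at 42 µM and replicates 1 to 3 at 28 µM lay above DMSO, and 28 µM replicate 4 lay inside its range. FDPS rose at 42 µM by 0.87 (SE 0.22, 1.82-fold, limma adjusted p = 0.0468). The 28 µM difference was 0.67 (SE 0.22, adjusted p = 0.275).

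At the branch point, GGPS1 lengthens farnesyl diphosphate to geranylgeranyl diphosphate for protein prenylation, and FDFT1, squalene synthase, commits it to sterols. GGPS1 read 10.79, 10.44, 10.35 and 10.38 on DMSO, 10.58, 10.35, 10.43 and 10.36 at 28 µM, and 10.47, 10.41, 10.29 and 10.44 at 42 µM (probe at chr1:235506189-235506248). Its groups overlapped, with differences of −0.06 at 28 µM (95% confidence interval −0.32 to 0.19) and −0.09 at 42 µM (−0.34 to 0.17). FDFT1, on chromosome 8, read 12.61, 12.55, 12.56 and 12.56 on DMSO, 13.25, 13.30, 13.16 and 12.64 at 28 µM, and 13.41, 13.48, 13.32 and 13.15 at 42 µM. The DMSO arrays of FDFT1 had an SD of 0.03, and all treated arrays were higher, 28 µM replicate 4 by the smallest margin. FDFT1 rose by 0.77 at 42 µM (SE 0.14, 1.71-fold, limma adjusted p = 0.016), and its 28 µM difference was 0.52 (SE 0.14, adjusted p = 0.213).

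**Figure D1:**
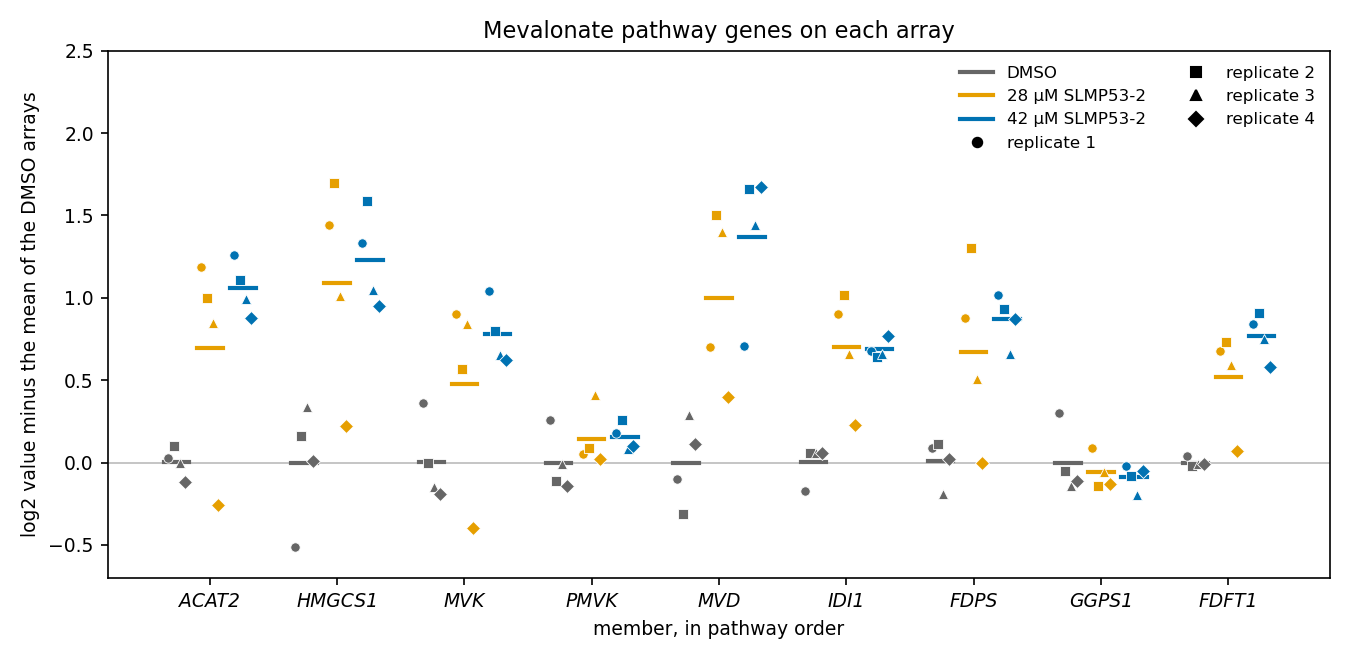
Log2 value of each of the 9 members on each of the 12 arrays minus the mean of its 4 DMSO arrays, in pathway order, with group means as bars and replicates as symbols. At 42 µM 7 of the 9 members lie above all DMSO arrays, PMVK and GGPS1 overlap with DMSO, and the diamond of 28 µM replicate 4 lies at the low end of its group for most members.

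The difference between the 2 branch enzymes widened, which restates the FDFT1 and GGPS1 values given above and is not separate evidence. How often other gene pairs separate as far was not counted. The per-array log2 value of FDFT1 minus that of GGPS1, whose absolute size has no meaning because the probes differ, was 1.82, 2.11, 2.21 and 2.18 on DMSO (mean 2.08 ± 0.18, SD, n = 4). It was 2.67, 2.94, 2.74 and 2.28 at 28 µM and 2.94, 3.07, 3.03 and 2.71 at 42 µM, so that neither dose overlapped with DMSO. The mean difference from DMSO was 0.58 at 28 µM and 0.86 at 42 µM, each with p = 0.0286 in an exact two-sided permutation test over 4 against 4 arrays, the smallest p this design allows, and 0.0286 adjusted over the 2 doses. With scaling to the 75th percentile in place of quantile normalization the differences were 0.47 to 0.49 at 28 µM and 0.72 to 0.74 at 42 µM, with an adjusted p of 0.0571 in each case.

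**Figure D2:**
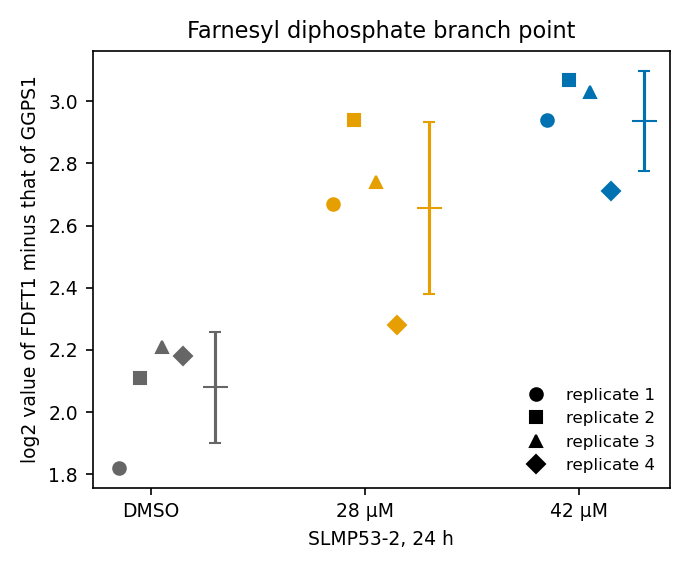
Log2 value of FDFT1 minus that of GGPS1 on each array (symbols, by replicate), with the mean and SD of the 4 arrays beside each group. The DMSO arrays lie between 1.82 and 2.21, the 28 µM arrays between 2.28 and 2.94, and the 42 µM arrays between 2.71 and 3.07.

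Counted over the members, 7 of 9 had 42 µM arrays that all lay above all DMSO arrays, a pattern shown by 5.92% of all genes tested. At 28 µM it held for 3 of 9, MVD, IDI1 and FDFT1, against 2.78% of all genes. At 28 µM 5 members, ACAT2, HMGCS1, MVD, IDI1 and FDPS, had an unadjusted p below 0.05 with a log2 difference of at least 0.6, against 1.46% of all genes, and none passed after adjustment. The median log2 change of the 9 members was 0.67 at 28 µM and 0.77 at 42 µM, beside −0.02 over all genes at each dose. Between the doses, 0 members and 0% of all genes passed, 0 members had an unadjusted p below 0.05 with the same log2 limit, and the median difference of the members was 0.20 beside 0.02 over all genes. The 42 µM minus 28 µM difference ran from −0.03 for GGPS1 to 0.37 for MVD (95% confidence interval −0.20 to 0.95), so that a further increase of MVD by up to 0.95 on the log2 scale lay inside the interval. The comparisons against DMSO share their control arrays.

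**Figure D3:**
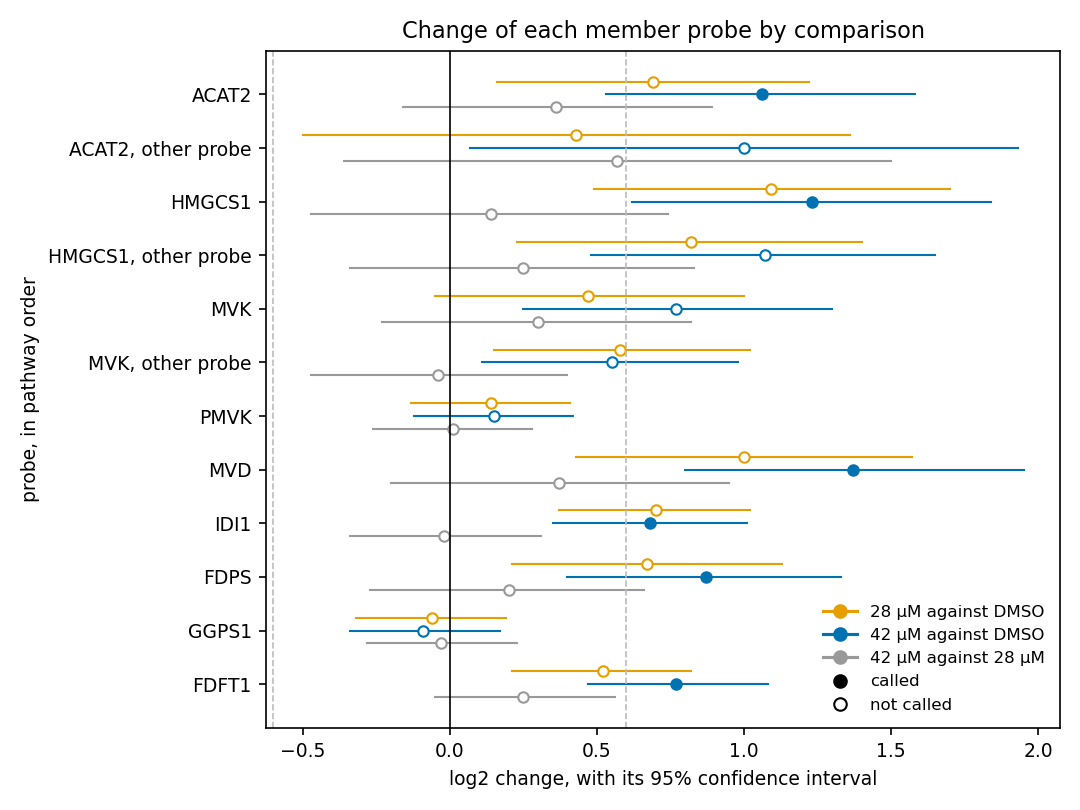
Log2 change of the 12 member probes in the 3 comparisons with 95% confidence intervals from limma, filled where the adjusted p was below 0.05 and the change at least 0.6, which the dashed lines mark. The 6 filled points all belong to 42 µM against DMSO, between 0.68 and 1.37, and the intervals of PMVK and GGPS1 span 0 in all 3 comparisons.

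The member values of 28 µM replicate 4 set the result at that dose. Its median deviation from the DMSO mean over the 9 members was 0.02 on the log2 scale, against 0.87, 0.99 and 0.66 for replicates 1 to 3 at 28 µM, 0.65 to 0.91 for the 42 µM arrays and −0.01 to 0.04 for the DMSO arrays. Without this array 7 of the 9 members passed at 28 µM, all but PMVK and GGPS1, among 717 of the 33476 probes that passed in either direction, against 0 with it. The 7 had log2 changes of 0.67 for FDFT1, 0.77 for MVK, 0.86 for IDI1, 0.89 for FDPS, 1.01 for ACAT2, 1.20 for MVD and 1.38 for HMGCS1. The median difference of the members between 42 µM and 28 µM was then −0.03. The array was not left out elsewhere, because its label puts it in the group, and why it differs was not tested.

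The calls at 42 µM also rested on few arrays. Without DMSO replicate 2 or without 42 µM replicate 2, 0 members and 0 of all tested probes passed. With all arrays 888 probes passed in either direction. Without DMSO replicate 1 FDFT1 was the only member to pass, and 259 probes did in all. Without DMSO replicate 3, DMSO replicate 4, 42 µM replicate 1 or 42 µM replicate 3 MVD and FDFT1 passed, among 449, 318, 500 and 553 probes. Without 28 µM replicate 3, which enters through the shared spread, MVD, IDI1 and FDFT1 passed, among 683. In each of these cases 7 members had an unadjusted p below 0.05 with the same log2 limit, as did 4.33% to 5.68% of all probes in either direction, and the median log2 change of the members stayed between 0.75 and 0.89. The scaling mattered as well. When arrays were scaled to the 75th percentile, 2 members passed with Edwards-corrected values, HMGCS1 and MVD, among 812 probes, and 1 with Agilent's processed signal, MVD, among 614. The median at 42 µM was then 0.56 and 0.54, beside −0.05 over all genes, and 8 of 9 members were still above the median gene.

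Arrays of the same slide gave 6 comparisons with DMSO. Slide 3 held 28 µM replicate 2 and 42 µM replicate 4 but no DMSO array, so these arrays had no control on their slide. At 42 µM replicate 1 against DMSO replicate 4 on slide 2, replicate 2 against DMSO replicate 3 on slide 4 and replicate 3 against DMSO replicate 2 on slide 5 had median member differences of 0.85, 0.95 and 0.64, and 9, 9 and 8 of the 9 members were higher. FDFT1 differed within slides by 0.77 to 0.92, ACAT2 by 0.89 to 1.38, HMGCS1 by 0.89 to 1.32, MVK by 0.64 to 1.23, MVD by 0.60 to 1.74, IDI1 by 0.58 to 0.62 and FDPS by 0.55 to 1.13. PMVK differed by 0.19 to 0.32 and GGPS1 by −0.15 to 0.09. At 28 µM the medians were 0.55 on slide 1, 0.84 on slide 2 and 0.03 on slide 4, where replicate 4 stood beside DMSO replicate 3. With the slide as a block, 0 members and 1 probe in all passed at 42 µM, with log2 changes of 0.59 for IDI1, 0.77 for FDPS, 0.78 for FDFT1, 1.06 for ACAT2, 1.10 for HMGCS1 and 1.30 for MVD.

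Over all 12 arrays, 28 µM replicate 4 included, most of the members also varied together with group means removed. Over the 12 arrays, Pearson's r of a member with the mean of the other 8 was 0.98 for FDFT1, 0.96 for ACAT2, 0.93 for FDPS, 0.92 for IDI1, 0.90 for HMGCS1, 0.86 for MVK and 0.80 for MVD, but 0.50 for PMVK and −0.17 for GGPS1. With group means removed it was 0.94 for FDFT1, 0.92 for ACAT2, 0.35 for MVD, 0.25 for PMVK and 0.17 for GGPS1. These are descriptions over arrays that share groups, slides and 28 µM replicate 4. That array lay at −0.26 from the DMSO mean for ACAT2 and 0.07 for FDFT1. Replicates 1 to 3 at 28 µM lay at 0.85 to 1.19 and 0.59 to 0.73. Among the DMSO arrays, replicate 1 was lowest for HMGCS1 (−0.51) and IDI1 (−0.17) but highest for MVK (0.36) and PMVK (0.26). The r values without 28 µM replicate 4 were not computed. Among 16270 other genes named through RefSeq, the 5 whose values ran most like the mean of the members were FABP3, a fatty acid binding protein (r = 0.994), PCK2, the mitochondrial phosphoenolpyruvate carboxykinase (0.992), BRI3 (0.991), VLDLR, the VLDL receptor (0.991), and SESN2, sestrin 2 (0.990). With group means removed they were FABP3 (0.985), GPT2, the mitochondrial alanine aminotransferase (0.980), BRI3 (0.976), PCK2 (0.974) and TNFRSF14 (0.972). At 42 µM the log2 change was 1.76 for FABP3 (SE 0.34) and 2.81 for PCK2 (SE 0.52), both passing the same limits.

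Genes next to the members in the pathway were counted from lists chosen with earlier results of these data known. Of 12 enzymes between squalene and cholesterol, 3 rose at 42 µM and 0 fell, with a median log2 change of 0.81. They were LSS, lanosterol synthase, with 1.58 (SE 0.27), DHCR7, the last reductase of one route to cholesterol, with 1.06 (SE 0.21), and EBP, a sterol isomerase, with 0.60 (SE 0.14). Of 10 genes of SREBP control and sterol uptake, 4 rose and 0 fell, with a median of 0.66. INSIG1, which retains the SREBP escort protein in the endoplasmic reticulum, rose by 1.46 (SE 0.35), and SREBF2, the gene of SREBP-2 itself, by 1.0 (SE 0.18). Of 14 genes of the prenyl, dolichol and ubiquinone branches 0 rose and 0 fell at 42 µM, with a median of −0.05, and 0 had an unadjusted p below 0.05 with the log2 limit at 28 µM. At 28 µM 0 genes of these lists passed, with medians of 0.64, 0.38 and 0.04.

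The supply of acetyl-CoA was covered by 7 genes that included ACAT1, of which 2 rose and 0 fell at 42 µM. ACSS2, which activates acetate to acetyl-CoA in the cytosol and nucleus, rose by 2.12 (SE 0.37), more than any member. ACLY, ATP citrate lyase, rose by 0.84 (SE 0.19). ACAT1, the mitochondrial thiolase that mirrors ACAT2, differed by 0.37 (SE 0.11, limma adjusted p = 0.106). At 28 µM its difference was 0.43 (adjusted p = 0.208).

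**Figure D4:**
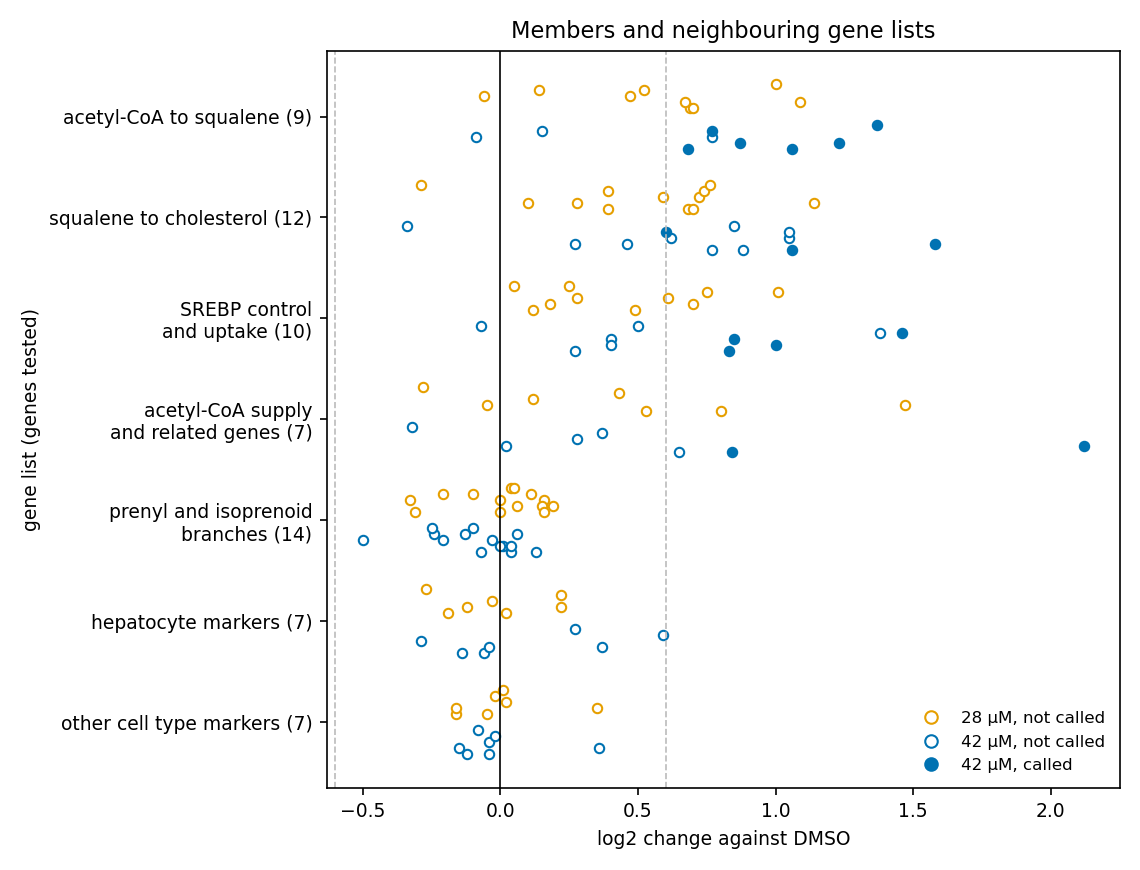
Log2 change against DMSO of every tested gene of the members and of 6 other lists, with 28 µM in the upper row and 42 µM in the lower row of each list, filled where the change was called. Called genes, all at 42 µM and all to the right of 0.6 or on it, lie in the 4 upper lists, and the prenyl branch genes lie between −0.50 and 0.19.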

How the data were processed

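RNA of 12 HuH-7 cultures was hybridised to 1-colour Agilent arrays. The authors deposited the output of Agilent Feature Extraction (10.7.3.1 per the labels), with mean and background intensities and flags for each spot, and a table of normalized log2 values that the authors made by Edwards correction and quantile normalization. Probe positions are hg19.

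From the deposited intensities, without outlier spots, both steps were repeated in limma 3.58.1 (R 4.3.3) and the spots of a probe averaged. A probe was dropped if under background on 3 or more arrays per group in all 3 groups, and 33476 remained. One model of the 3 groups over the 12 arrays was fitted with limma (lmFit, eBayes), two-sided, with Benjamini-Hochberg adjustment over all probes. The probe of highest mean stands for a gene. Named are all members, up to 3 called genes per list, ACAT1 and the 5 most alike genes, and some genes of this rule are not reported here. The members and lists were chosen with earlier results of these data known. The code was tested on simulated data. Promoters are from RefSeq (GRCh38.p14). Alternatives were other corrections, scalings, filters, blocks and limits, the authors' values, an intensity trend, array weights, and leaving out each array. The authors' values of the member probes differed from those computed here by −0.10 to 0.09. Figures were drawn with matplotlib 3.10.9. The number of arrays limits the precision.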

Additional observations from a re-analysis of the deposited data

Results flagged for a closer look

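Of 36 sets of 4 replicates, 1 for each of the 12 member probes in each of the 3 groups, 2 held an array far from the others by Dixon's test at the 95% level, which flags about 1 in 20 sets by chance. In IDI1, DMSO replicate 1 was the lowest, at 10.70 against 10.93 for the nearest array. In FDFT1, DMSO replicate 1 was the highest, at 12.61 against 12.56 for the nearest. Both gaps are smaller than the changes of these genes at 42 µM. None of the sets was flagged for 28 µM replicate 4.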

How the results depend on the processing

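Over the 26 alternatives, 0 to 7 members were called at 42 µM against DMSO, beside 6 as reported, and 14 kept the count within 1.5 times. The count was 1 with the processed signal scaled to the 75th percentile, 2 with Edwards values so scaled, 0 with the slide as a block and 3 with a log2 limit of 1. Leaving out single arrays gave 0 to 7 at 42 µM and 0 to 7 at 28 µM, where the 7 came without 28 µM replicate 4 and the other alternatives gave 0, as all alternatives did between the doses. The median log2 change at 42 µM lay between 0.54 and 0.89. At 28 µM it lay between 0.39, with the processed signal scaled to the 75th percentile, and 0.86. Every alternative kept the direction of the 7 members other than PMVK and GGPS1 at both doses, and PMVK stayed at 0.02 or above, while GGPS1 was above 0 under 1 alternative at each dose. Fits with fewer arrays or with a block have fewer residual degrees of freedom.

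FDFT1 minus GGPS1 was 0.49 and 0.72 (28 µM and 42 µM) with the processed signal scaled to the 75th percentile, and 0.47 and 0.74 with Edwards values under that scaling. Leaving out single arrays gave 0.48 to 0.70 at 28 µM and 0.77 to 0.93 at 42 µM, and an adjusted p of 0.0571 whenever a DMSO array was left out. With the replicate block, as a sign-flip test over 4 pairs, the values were 0.58 and 0.86 with an adjusted p of 0.125, the smallest that this pairing can give. Whether the replicate numbers pair the samples was not settled. Deviations from the group means of same-numbered arrays correlated at −0.46 to 0.62 over 12 pairs, and differently numbered arrays were not set beside them. As a block in limma the replicate numbers gave 7 members called at 42 µM, MVK added, and 1369 probes in all beside 888 without the block. MVK also passed with array weights, with only the compared groups in the fit and without 28 µM replicate 4.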
